A study of Gasterosteus aculeatus with 18 samples.

Results

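Embryos of the threespine stickleback (Gasterosteus aculeatus) exposed to either of 2 doses of cortisol were compared, as 1 group, with untreated embryos. The value for a gene was the mean of the low and the high pool minus the control pool of the same replicate number, so each gene had 6 pooled shifts. All 18 libraries of the series entered, and 16103 of the 17253 genes in the table passed the limit on the mean value. Wild-type eggs in pools of 10 had been collected 72 hours after fertilization, 6 pools at each of 0, 5 and 10 µg/L (control, low and high). The design text describes these as a baseline level, a level induced by predators and a level beyond the physiological range; the sample labels call the agent maternally derived cortisol, whereas the design text speaks of treated egg clutches. All groups shared the wild-type genotype and the stage. The labels state neither that same-numbered pools came from 1 clutch nor that pools of a group came from separate ones, so each p-value below reflects the spread among these pools alone, which may be technical.

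Cortisol is the main glucocorticoid of teleost fish. It passes from the mother into the yolk of her eggs, and in cells it binds the glucocorticoid receptor, a transcription factor that raises some genes and lowers others once it holds the hormone. ABC transporters, which the study's title names, are membrane pumps that move lipids, steroids and drugs out of cells with energy from ATP. A response that both doses share would show as genes displaced the same way from control in low and high pools. A gene raised by the low dose and lowered by the high dose would drop out of the pooled contrast. The table gives genes by Ensembl identifier alone and 0 of them were found in the reference gene table, so gene names, functions, the ABC transporters and markers of embryonic tissue are not analysed here.

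The libraries differed more between numbers than between groups. Column totals of the normalised read counts, which do not measure depth because the authors had scaled the columns, ran from 8.36 to 15.2 M (M, 1000000). The pooled shift of the column total was -0.0764 ± 1.22 M (SD, n = 6 numbers), upward in 1 of 6 numbers (exact sign-flip test, two-sided, p = 0.844, adjusted over 4 library measures 0.844). The tally of genes listed at 5 or below rose in 3 numbers and fell in the other 3 (shift 23.4 ± 135 genes, exact sign-flip test, p = 0.719, adjusted 0.844). Number 3 had the most such genes in every group. High pool 3 listed 1220, against 438 to 802 in the other high pools. Control pool 3 listed 738, against 418 to 530, and low pool 3 listed 597, against 358 to 550. The share of the 100 most abundant genes shifted by -0.352 ± 2.59 percentage points, upward in number 5 alone (exact sign-flip test, p = 0.719, adjusted 0.844). The median shift over all genes tested was -0.0058 ± 0.010 on the log2 scale (exact sign-flip test, p = 0.219, adjusted 0.844), so the columns were centred alike.

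No gene passed the test of both doses against control, and the 5 genes nearest to it were all lower in the cortisol pools. These 5 genes (0.0311%), which had an adjusted p under 0.10, fell short of the 0.05 limit and differed from control by 1.32-fold to 1.67-fold. In limma with the replicate number as a block, 0 of 16103 genes (0%) had an adjusted p under 0.05, with a lowest value of 0.0580. Before adjustment 1495 genes (9.28%) had a p under 0.05, of which 696 (4.32%) were higher and 799 (4.96%) lower. The same count was 1604 (9.96%) when limma was run on the 6 pooled shifts alone, with 1 gene called (0.00621%), and 63 (0.391%) without the block, with 0 called. The outcome rested on how libraries were weighed: 186 genes were called, 37 higher and 149 lower, when limma gave each library a weight by its spread (0.399 for control pool 5 to 3.62 for low pool 6). Libraries of numbers 1 and 6 had weights of 1.57 to 3.62, and low and high pools of numbers 2 to 5 had 0.454 to 0.691. Control pools 2, 3 and 4 had 0.659, 1.67 and 1.57. Leaving out low pool 5 gave 27 calls, control pool 4 or high pool 4 gave 3, control pool 2 or control pool 5 gave 2, and numbers 2, 4 and 5 gave 1, 5 and 8.

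ENSGACG00000009287 had the smallest p. Its normalised read count in control pools 1 to 6 was 515, 1330, 1328, 1230, 1261 and 780. In low pools it was 420, 941, 1026, 860, 1140 and 516, and in high pools 401, 940, 974, 1044, 1009 and 562. Each of the 12 cortisol pools lay below the control pool of its number, while the ranges of the 3 groups overlapped because the numbers differ in level. The pooled shift was -0.40 ± 0.061 on the log2 scale (SE), a 1.32-fold decrease, with an adjusted p of 0.0580 in limma. The low shift of -0.40 ± 0.070 and the high shift of -0.39 ± 0.070 were nearly equal, with adjusted p-values of 0.0573 and 0.0156; both use the same control pools.

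ENSGACG00000005701 had the largest change of the 5. Control pools 1 to 6 held 2223, 4189, 446, 4773, 2252 and 1905, low pools 1130, 2312, 240, 3240, 2279 and 889, and high pools 1077, 3070, 153, 3940, 2027 and 897. The cortisol pools lay below their control in 11 of 12 cases, low pool 5 being the exception. The pooled shift was -0.74 ± 0.13 (adjusted p = 0.0720 in limma), a 1.67-fold decrease. The low shift was -0.73 ± 0.15 and the high shift -0.76 ± 0.15, with adjusted p-values of 0.0960 and 0.0217 in limma. The level in number 3 was far under that in the other numbers in all 3 groups, and the shift was seen at that level as well.

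The other 3 genes were ENSGACG00000016669, ENSGACG00000000906 and ENSGACG00000016699, named after their values were seen. ENSGACG00000016669 had a control count of 929 ± 427 (SD, n = 6), a low count of 659 ± 301 and a high count of 699.8 ± 335, below control in 12 of 12 pools, with a pooled shift of -0.45 ± 0.078. ENSGACG00000000906 had 664 ± 292, 504 ± 217 and 473 ± 217 in the same order, below control in 11 of 12 pools, with a pooled shift of -0.45 ± 0.079. ENSGACG00000016699 was less abundant, with a control count of 122 ± 35.4, a low count of 79.2 ± 23.4 and a high count of 89.0 ± 25.3, and was below control in 12 of 12 pools, with a pooled shift of -0.53 ± 0.096. Limma called high minus control in ENSGACG00000016669 (adjusted p = 0.0287) and ENSGACG00000000906 (0.0150) but not in ENSGACG00000016699 (0.0538). It called low minus control in none of these 3 (0.0761, 0.131 and 0.0728). The choice of genes by the pooled contrast favours small p-values here. In none of the 5 genes did limma call high minus low (from -0.11 ± 0.091 to 0.16 ± 0.11, adjusted p from 0.405 to 0.933). ENSGACG00000003404, also named after its values were seen, was the gene that limma called on the 6 shifts alone (adjusted p = 0.0270). Control pools averaged 1590 ± 1034, low pools 1064 ± 853 and high pools 1123 ± 692, below control in 12 of 12 pools, with a pooled shift of -0.60 ± 0.11.

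**Figure D1:**
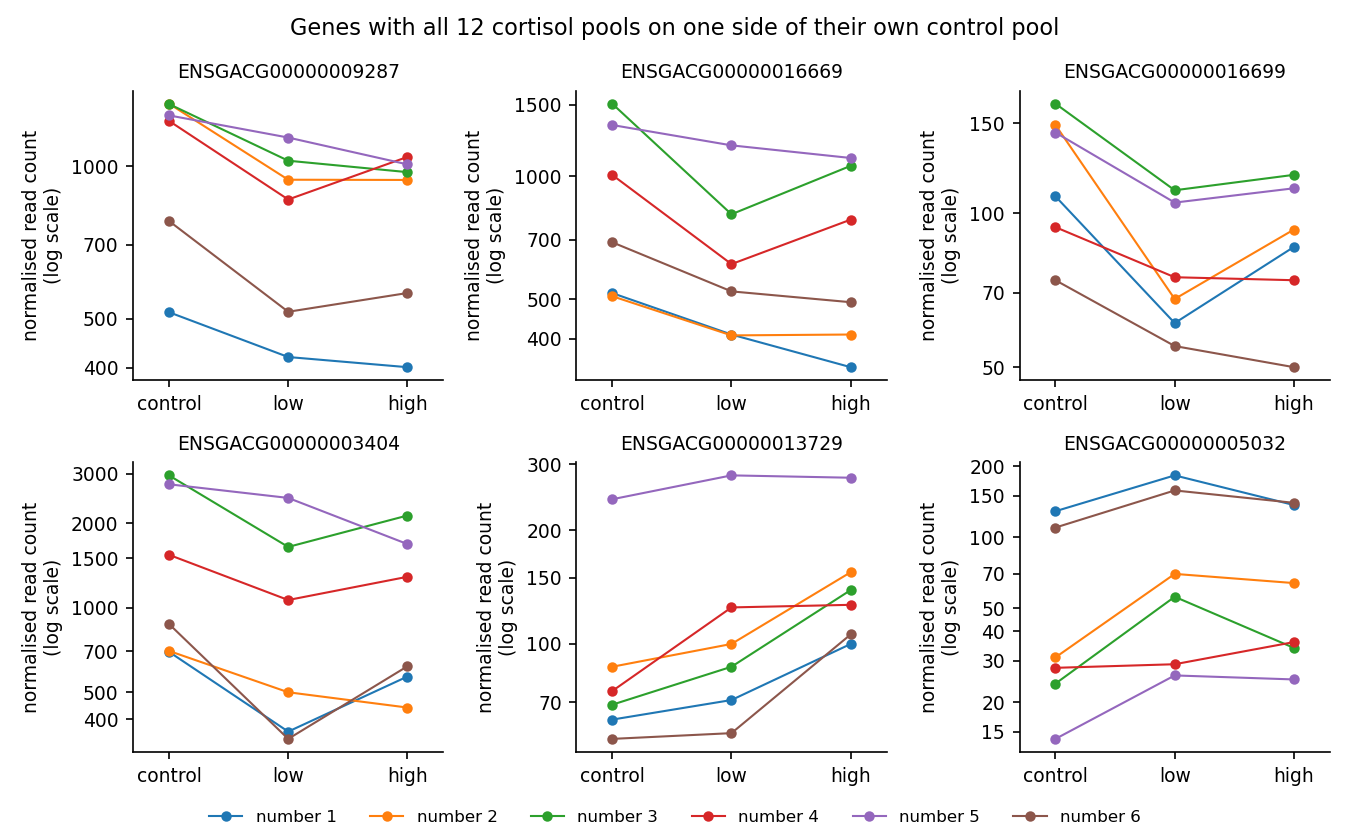
Normalised read count (log scale) of 6 genes in control, low and high pools, with 1 line for each replicate number. Both cortisol pools lie below their own control in every number for 4 genes and above it for ENSGACG00000013729 and ENSGACG00000005032; the numbers differ in level by more than the groups do.

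The 2 genes with the smallest p among those with a positive pooled shift owed it mainly to the high dose. ENSGACG00000015348 had 247 to 445 (median 350) in control pools, 263 to 450 (median 345) in low pools and 424 to 638 (median 566) in high pools. Low pools overlapped control pools throughout, while 5 of 6 high pools exceeded the highest control pool. Its low shift was 0.047 ± 0.082 and its high shift 0.70 ± 0.082, which gave a pooled shift of 0.37 ± 0.071 (adjusted p = 0.111 in limma). In ENSGACG00000009698 only high pool 3, at 303, exceeded the highest control pool, which was 157 in the same number. Its shifts had the same order, with a low shift of 0.18 ± 0.16, a high shift of 1.19 ± 0.16 and a pooled shift of 0.68 ± 0.14 (adjusted p = 0.154). For both genes, high exceeded low in limma (adjusted p = 0.000271 and 0.00116), but not without the replicate block (0.9999 for both). No named gene was called there. Without the block limma called 0 genes for high minus low, against 1300 with it, and 0 for high minus control, against 188. Genes at an unadjusted p under 0.05 numbered 385 and 158. That fit counts the differences between numbers as error, and same-numbered libraries correlated at a mean r of 0.78. Its lack of calls therefore cannot decide whether the calls with the block hold.

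Genes that moved the same way under both doses in the same pairs were few. In 78 of 16103 genes (0.484%) the low and the high pool lay on the same side of the control pool in 6 of 6 numbers, above it in 36 (0.224%) and below it in 42 (0.261%). Because 1 control pool serves both differences of a number, chance departures of that pool move both the same way, and the count cannot be read as a count of responses. The pooled shift of these genes had a median size of 0.31 on the log2 scale, a 1.24-fold change, beside 0.085 for all genes tested. The 36 higher genes had a median low shift of 0.26 and a median high shift of 0.31, and the 42 lower genes -0.32 and -0.31, sizes that the requirement on all 12 differences favours. The pooled shift reached 0.5 in size in 18 of the 78 genes (5 higher, 13 lower), and it ran from -1.05 to 0.71. That size was reached in 167 of the 16103 genes tested, a difference that the same requirement favours. With numbers 1 to 6 left out in turn the count was 157, 129, 131, 203, 346 and 135, as fewer differences are then required. It was 213 without low pool 5 and 123 without high pool 4.

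Taken as a whole, this group was divided by the dose of the larger shift much as all genes tested were. The high shift was the larger in 23 of the 36 higher genes and in 19 of the 42 lower genes, 42 of 78 in all (53.8%), beside 54.0% of all genes tested. High minus low was called by limma in 2 of the 78 genes, beside 1300 of 16103 (8.07%) over the whole table. The choice of genes by side limits high minus low relative to the pooled shift, so the 2 shares cannot be compared as a result. High minus control was called in 8 of them (1 higher, 7 lower), beside 188 genes (1.17%) in the table, 117 higher (0.727%) and 71 lower (0.441%), a difference that the choice of genes favours. The genes were close to the rest in abundance, with a median over the genes of the mean normalised read count of 148 against 177 for all genes tested, and from 14.7 to 7792 within the group. Their levels varied between numbers like those of other genes, with a median SD over the 6 numbers of 0.40 on the log2 scale beside 0.41 for all genes. Number by number, the medians of the 36 higher genes were 0.14 to 0.31 in low and 0.15 to 0.38 in high pools. Those of the 42 lower genes were -0.42 to -0.15 and -0.40 to -0.19. In number 5 the high shift of both groups exceeded the low one in size by the widest margin, 0.38 against 0.14 and -0.34 against -0.15.

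The 2 higher genes of this group with the smallest p, and the lower gene with the largest change, were named after their values were seen. ENSGACG00000013729 had counts of 63, 87, 69, 75, 242 and 56 in control pools 1 to 6, 71, 100, 87, 125, 280 and 58 in low pools, and 100, 155, 139, 127, 276 and 106 in high pools. Its high shift of 0.72 ± 0.12 exceeded its low shift of 0.28 ± 0.12 (high minus low, adjusted p = 0.0310 in limma), and the pooled shift was 0.502 ± 0.10 (adjusted p = 0.161). ENSGACG00000005032 showed the reverse order, with a control count of 56.0 ± 49.9 (SD, n = 6), a low count of 87.0 ± 67.2 and a high count of 72.7 ± 52.6. Its low shift was 0.71 ± 0.15 and its high shift 0.51 ± 0.15, and limma did not call high minus low (adjusted p = 0.471). Its pooled shift was 0.61 ± 0.13 (adjusted p = 0.164).

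ENSGACG00000001925 fell the furthest of the 42 lower genes by its pooled shift, -1.05 ± 0.32, but did not pass the test (adjusted p = 0.336 in limma). Its counts were low, at 12 to 62 (median 14) in control, 7 to 25 (median 11) in low and 0 to 23 (median 8) in high pools. Control pools 1 and 6, at 62 and 39, were far above the other 4 control pools. Numbers 1 and 6 were also the highest in low pools, at 25 and 22, and in high pools, at 23 and 23. The value of 0 in high pool 4 makes its high shift of -1.42 ± 0.37 depend on the pseudocount of 1 added before the log transformation.

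**Figure D2:**
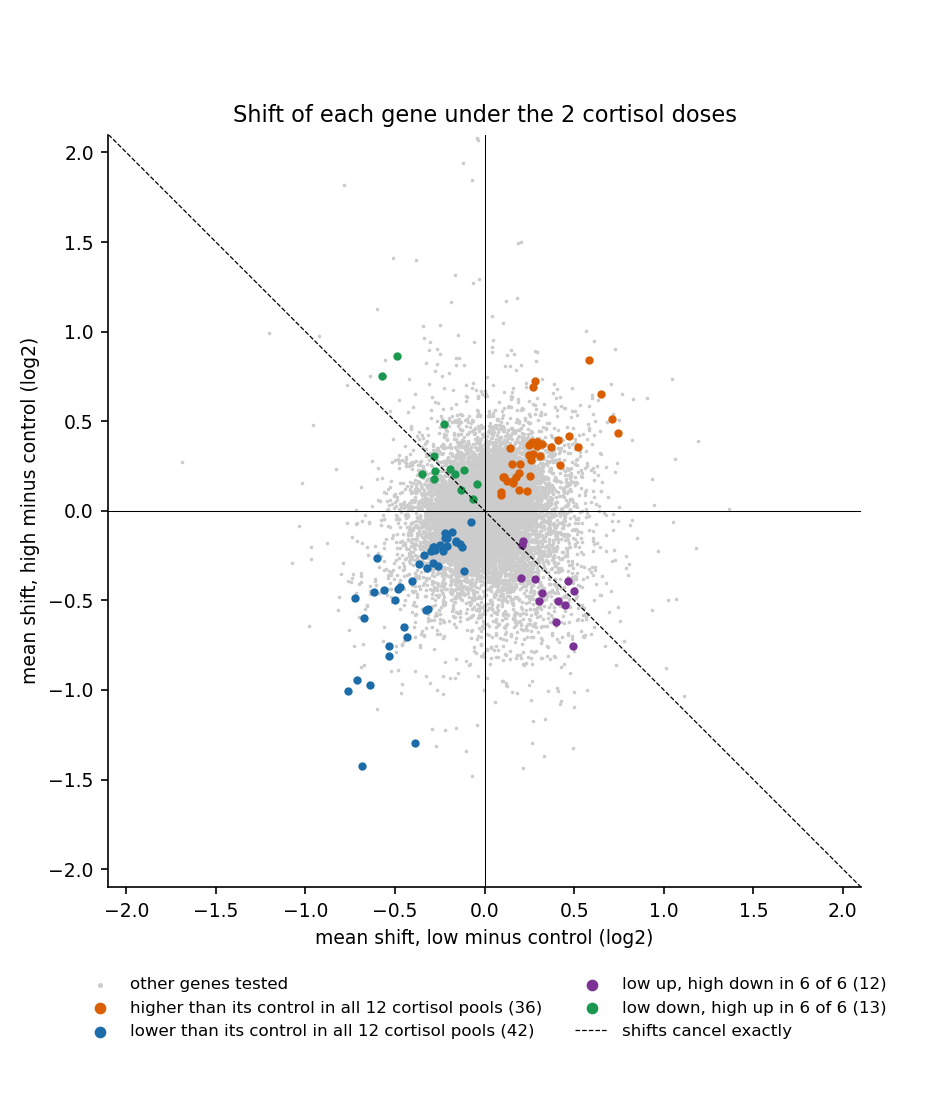
Mean shift over 6 numbers of each of the 16103 genes tested under the low dose (horizontal axis) and the high dose (vertical axis), both minus control on the log2 scale; the control pools are common to both axes. The 78 genes on the same side of control in all 12 cortisol pools lie in the upper right and lower left, and the 25 with opposite shifts in 6 of 6 numbers lie along the dashed line on which the shifts cancel.

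Genes whose shifts cancelled were fewer still by pair agreement. In 25 genes (0.155%) the low pool lay on one side of control and the high pool on the other in 6 of 6 numbers, low above and high below in 12 (0.0745%) and the reverse in 13 (0.0807%), a split that was 17 to 8 after quantile normalization. Their pooled shifts ran from -0.13 to 0.19 and 0 of the 25 had an unadjusted p under 0.05 in the pooled contrast. The choice of opposite shifts favours this but does not require it. Among all genes tested, 62 with opposite mean shifts did reach that p. The 12 genes raised at the low dose had a median low shift of 0.36 and a median high shift of -0.45. The 13 lowered at the low dose had -0.23 and 0.22. Limma called high minus low in 23 of the 25, which the choice of genes favours. These genes were more abundant than most, with a median over the genes of the mean count of 324 against 177, and from 40.3 to 4578. Their levels varied more between numbers, with a median SD over the 6 numbers of 0.69 on the log2 scale beside 0.41 for all genes. It was 0.76 in the 12 and 0.40 in the 13. Both named genes of the 12, described below, had their highest control counts in numbers 2 and 4, so the 12 need not be independent of each other. Sharing of the control pool works against opposite shifts, since a chance departure of that pool moves both shifts alike. The count of 25 is therefore not on an equal footing with the 78 same-way genes. Without number 2, 3, 4, 5 or 6 the count was 88, 42, 86, 68 or 39, and without the single pool low 2, low 4, low 5 or high 2 it was 67, 71, 64 or 41.

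ENSGACG00000020034 was the gene of smallest p for high minus low among the 12. Its counts in numbers 1 to 6 were 96, 424, 138, 298, 204 and 127 in control, 130, 470, 224, 351, 293 and 164 in low, and 70, 268, 78, 255, 98 and 87 in high pools. Every low pool was above its control and every high pool below it. The low shift was 0.40 ± 0.12 and the high shift -0.62 ± 0.12, so high minus low was -1.02 ± 0.12 (adjusted p = 0.000253 in limma) and the pooled shift -0.11 ± 0.10 (adjusted p = 0.768). ENSGACG00000007727 had the same pattern at a higher level, with control pools at 1304 ± 1025 (SD, n = 6), low pools at 1626 ± 1174 and high pools at 962 ± 869, with high minus low at -0.91 ± 0.11 and a pooled shift of -0.045 ± 0.095.

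The opposite pattern was widest among named genes in ENSGACG00000007691. Control pools 1 to 6 held 168, 95, 675, 287, 321 and 148, low pools 71, 81, 589, 207, 276 and 68, and high pools 248, 185, 918, 521, 785 and 197. The low shift was -0.58 ± 0.14 and the high shift 0.75 ± 0.14, and high minus low was 1.33 ± 0.14 (adjusted p = 0.000220 in limma). ENSGACG00000005209 was steadier between numbers, with control pools at 549 ± 174 (SD, n = 6), low pools at 448 ± 134 and high pools at 684 ± 232, a low shift of -0.28 ± 0.074 and a high shift of 0.31 ± 0.074. Its pooled shift of 0.011 ± 0.064 was the closest to 0 of the 4 named genes with opposite shifts.

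**Figure D3:**
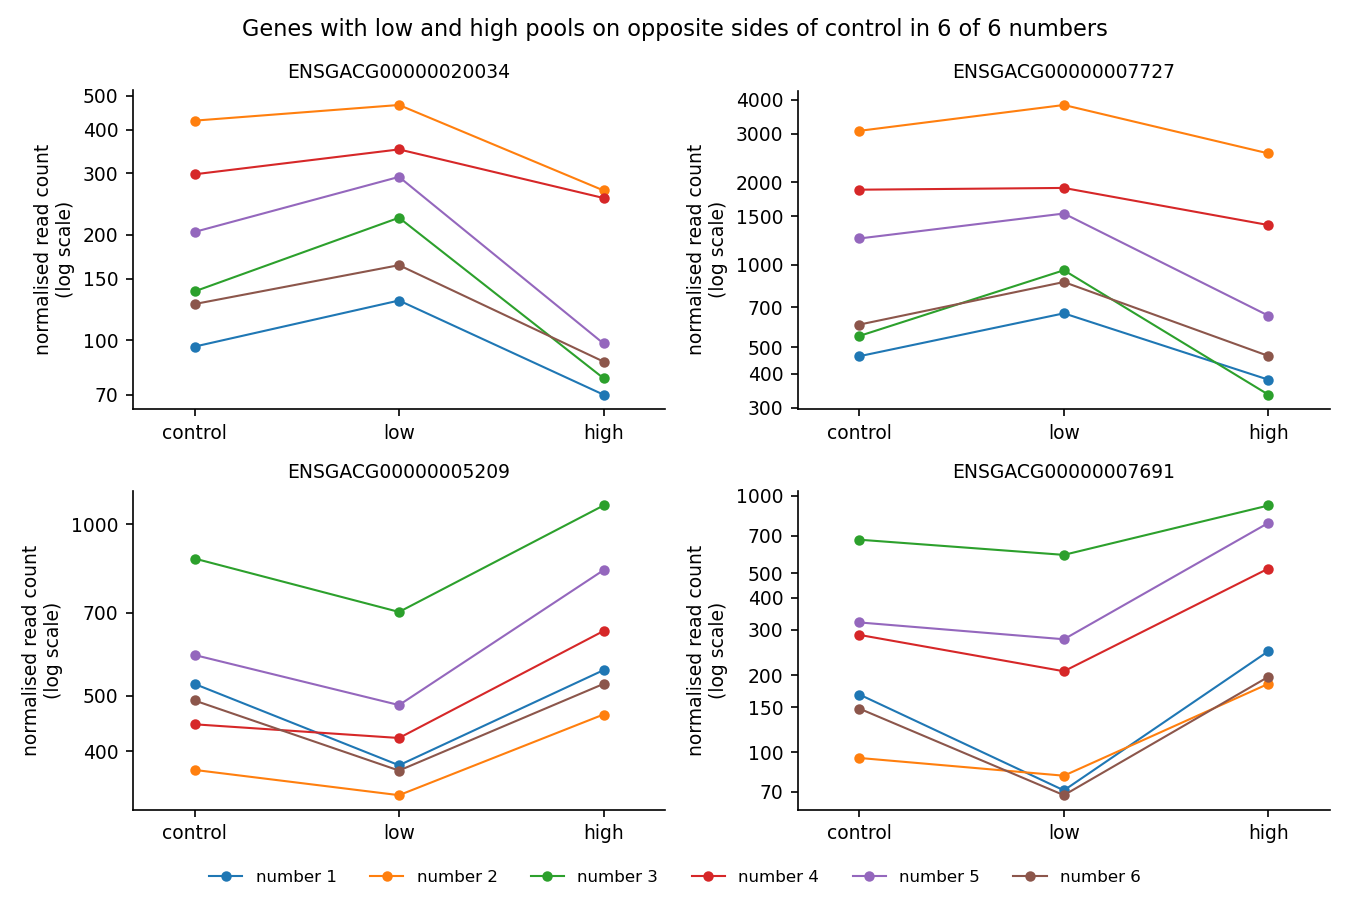
Normalised read count (log scale) of the 4 named genes with opposite shifts, with 1 line for each replicate number. Low pools lie above control and high pools below it in every number for ENSGACG00000020034 and ENSGACG00000007727, and the reverse holds for ENSGACG00000005209 and ENSGACG00000007691.

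By size in place of pair agreement, the counts of genes that moved together and of genes that cancelled were close. Their order depended on the libraries and the filter. The shared control pool favours same-way shifts and works against opposite ones, so close counts do not mean equal numbers of responses. Mean shifts of at least 0.3 on the log2 scale under both doses went the same way in 301 genes (1.87%), 136 up (0.845%) and 165 down (1.02%). They went opposite ways in 276 genes (1.71%), of which 225 (1.4%) were up at the low and down at the high dose and 51 (0.317%) the reverse, a split that was 143 to 72 after quantile normalization. Of the 276, 184 (1.14% of all genes tested) had a pooled shift under 0.1 in size. The median over the genes of the mean count was lower in each of these sets than the 177 of all genes tested. It was 25.6 in the 136, 36.1 in the 165, 44.7 in the 225 and 111 in the 51. Pairs agreed in few of them: 10 of the 136 and 20 of the 165 were on the same side in 6 of 6 numbers, as were 8 of the 225 and 2 of the 51 on opposite sides. Same-way and opposite genes numbered 453 and 356 without number 4, 455 and 250 without number 5, and 368 and 216 without number 3. Leaving out only the control pool of number 4 or 5 gave the same 453 and 455 by construction. Both shifts of a number need its control pool, so the number drops out entirely. The order turned to 326 and 399 without number 2 and to 103 and 143 among genes with a mean count of at least 50. After quantile normalization the counts were 345 and 215.

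The 225 genes up at the low and down at the high dose were uneven across numbers. The median low shift was 0.67 in number 1 and 0.66 in number 6 but 0.096 in number 4, and the median high shift was -1.18 in number 3 and -1.01 in number 5 but 0 in number 2. High pools 3 and 5 were the high libraries with the most genes listed at 5 or below, 1220 and 802. The part of those libraries in the count was not tested beyond leaving out single libraries or numbers. That gave 216 to 399 genes of opposite shifts, a range for the 276 genes of both directions and not for the 225 alone.

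At an unadjusted p under 0.05 for each dose in limma, 108 genes (0.671%) were higher and 154 (0.956%) lower under both. Another 77 (0.478%) were higher at the low and lower at the high dose, and 76 (0.472%) the reverse. Over all genes tested, 1782 (11.1%) reached that p for the low and 2647 (16.4%) for the high dose against the same control pools. For low against control limma called 0 genes after adjustment (0%), so no gene was called under both doses.

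Control as the group set apart gave fewer genes than low or high in the fit with the replicate block. The same contrast was made with each group in turn set against the mean of the other two. Limma called 0 genes for control, 558 (3.47%) for low, of which 206 (1.28%) were higher and 352 (2.19%) lower in low pools, and 1155 (7.17%) for high, of which 604 (3.75%) were higher and 551 (3.42%) lower. The low pool was the highest or the lowest of its number in 6 of 6 numbers for 230 genes (1.43%) and the high pool for 502 genes (3.12%), against the 78 for control. Low lay between the others in the same order in 6 of 6 numbers for 2 genes (0.0124%) and high for 3 (0.0186%), against the 25 for control (0.155%). Each of these counts shares its reference pool in the same way. The difference between the counts was not tested. The counts for low and high were both 0 without the block, in a fit that counts the differences between numbers as error. With the tally of genes listed at 5 or below as a covariate they were 17 and 107, with 0 for control. Without numbers 1 and 6, left out together after the data were seen, the count for low was 0, as for control, and that for high 614. Single pools moved both counts: that for low was 111, 154 and 104 without low pools 1, 3 and 6, 320 and 318 without control pools 1 and 6, and 1189 without control pool 5. That for high was 428 without high pool 3, 351 without high pool 5, 717 without low pool 1, 726 without low pool 6, 727 without control pool 3 and 746 without control pool 4.

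Differences short of complete agreement were counted as well. Genes without a tie numbered 13046 with control as reference, 13092 with low and 13211 with high. Among them, control as reference had 168 genes with 11 of 12 differences above it and 182 with 1 of 12 above. With low as reference these were 459 and 485, and with high 511 and 516. An even division, 6 of 12, was found in 2202 genes for control, 1660 for low and 1666 for high.

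**Figure D4:**
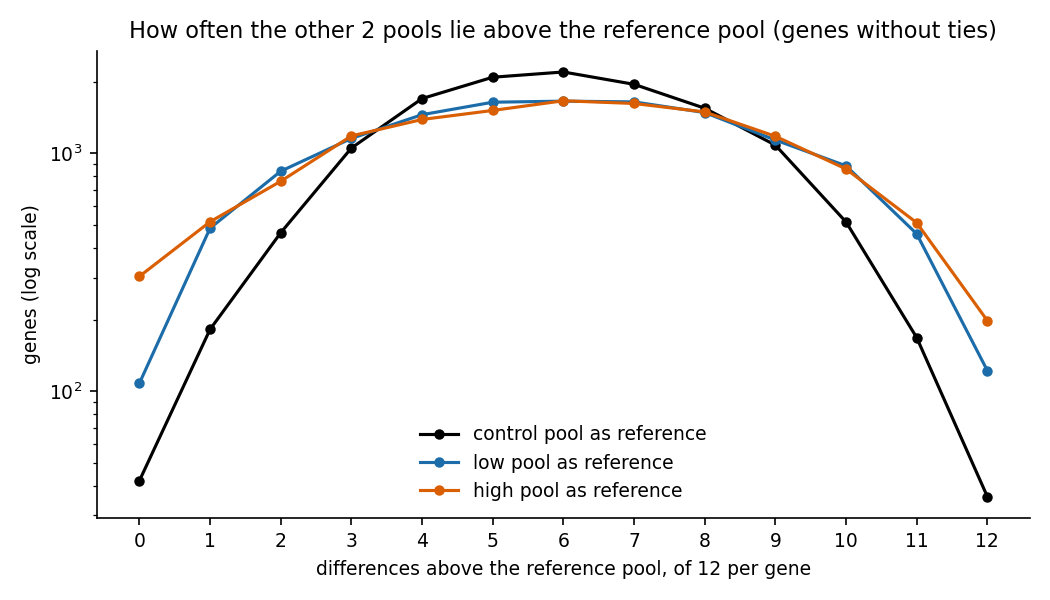
Number of genes (log scale) by how many of the 12 differences of the other 2 pools of a number lie above the reference pool, for control, low or high as reference, over genes without a tie. The control curve is the narrowest, with 42 and 36 genes at its ends, against 108 and 122 for low and 304 and 198 for high.

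The dose differences of a gene divide into 2 parts, both doses against control and high against low. These would be independent and of equal size if the 3 pools of a number differed at random and with equal spread. The library weights by spread were not equal. Control, low and high pool 3 had 1.67, 0.620 and 0.454, and control, low and high pool 5 had 0.399, 0.595 and 0.487. A share other than 50% can therefore not be read as a departure from chance. Averaged over the 6 numbers, the pooled contrast held 27.3% of the sum of squares over the 16103 genes. Within single numbers, before averaging, it held 43.9%, 55.6%, 31.7%, 39.7%, 40.7% and 44.1% in numbers 1 to 6. The share was thus under 50% in 5 of 6 numbers, and averaging over numbers, which keeps what numbers have in common, lowered it further. The SD of the mean pooled shift over genes was 0.15 on the log2 scale, and that of high minus low 0.29.

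The pooled shift was then compared between numbers. Across the 16103 genes, which are not independent replicates, the pooled shifts of 2 numbers, which share no library, correlated with a mean r of 0.057 over 15 pairs of numbers, and r was above 0 in 10 of them. Numbers 1 and 6 were alike, at r = 0.47. The other 14 pairs ran from -0.16 to 0.17, with a mean of 0.027. High minus low correlated more between numbers, with a mean r of 0.28, a range of 0.071 to 0.61 and 15 of 15 pairs above 0, and again numbers 1 and 6 gave the highest value. Numbers 1 and 6 also shared the lowest column totals in each group, 8.36 to 9.14 M.

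**Figure D5:**
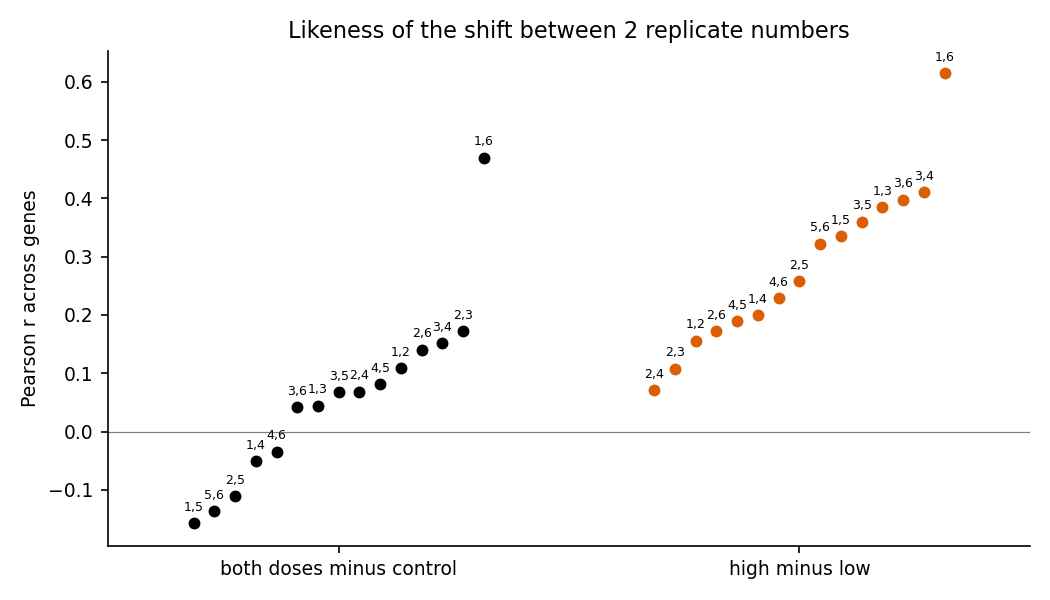
Pearson correlation across 16103 genes of the shift in 1 replicate number with the shift in another, for both doses minus control and for high minus low; each point is 1 of 15 pairs of numbers, labelled with the pair. For both doses minus control the points lie around 0 except for numbers 1 and 6 at 0.47, while for high minus low all 15 lie above 0.

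Within a number, by contrast, many genes moved far in both cortisol pools. Shifts of at least 0.5 on the log2 scale in both pools, the same way, were found in 582, 1383, 736, 505, 1031 and 582 genes in numbers 1 to 6, a count that the shared control pool of the number raises. Opposite shifts of that size were found in 91, 54, 344, 83, 197 and 98 genes. The genes moved up made up 1.68% to 4.79% of those tested in a number, and the genes moved down 1.29% to 3.79%. Of the genes moved up, 335 did so in 2 numbers, 38 in 3, 2 in 4 and 0 in 5 or 6. Of those moved down it was 241, 50, 4 and 0. Numbers 1 and 6 shared 154 such genes in the same direction, 26.5% of either list, and 4 in opposite directions. Other pairs of numbers shared 25 to 90 in the same direction, which was 3.30% to 14.1% of either list. They also shared 26 to 115 genes in opposite directions. The lowest was 26 in numbers 3 and 4, beside 56 in the same direction. The highest was 115 in numbers 2 and 5, beside 57 in the same direction.

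The genes common to numbers 1 and 6 were examined in the 4 numbers that had not been used to choose them. The 90 genes higher in cortisol pools of both numbers had median pooled shifts of -0.044, -0.15, -0.15 and -0.21 in numbers 2 to 5, with 29 to 42 of the 90 above 0 (32.2% to 46.7%, beside 46.0% to 50.7% of all genes tested). They were genes of low count, with a median over the genes of the mean of 27.3. The 64 lower genes had median shifts of -0.38, -0.44, -0.039 and -0.12, with 54, 46, 38 and 37 of the 64 below 0 (84.4%, 71.9%, 59.4% and 57.8%, beside 50.9%, 53.9%, 49.2% and 49.7% of all genes tested). The medians over all genes were -0.0072, -0.025, 0.0041 and 0.0016 in these numbers. Neither group was tested against the other genes.

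Abundance did not order the pooled shift in the same direction in all numbers. The median shift of genes with a mean log2 value under 5 was 0.059, 0.036, -0.11, -0.022, -0.14 and 0.092 in numbers 1 to 6, above 0 in 3 of 6 (mean -0.013 ± 0.092, SD, exact sign-flip test, p = 0.719, adjusted over 4 classes 0.938). That of genes over 9 was above 0 in 2 of 6 numbers (mean -0.019 ± 0.047, exact sign-flip test, p = 0.344, adjusted 0.938). Within number 5 the class under 5 fell and the class over 9 rose, at -0.14 and 0.063. The class under 5 was also the lower of these 2 in number 3, at -0.11 and -0.032, and in number 4, at -0.022 and 0.0041. In numbers 1, 2 and 6 the order was the reverse. Same-way genes made up 0.476%, 0.543%, 0.489% and 0.404% of the classes from low to high abundance. RNA of whole embryos does not tell fewer cells of a type from less RNA per cell, so each of these differences is one of the pooled RNA.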

How the data were processed

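RNA of 18 egg pools was sequenced. The authors deposited 1 table of whole-number scores, that is, counts per gene that they had normalized and rounded; the method of scaling is not given in the sources used here, nor are the genome build and annotation. The tools listed, without their steps, per the submitters' processing notes are edgeR, HTSeq, Cuffdiff, Cufflinks 2.2.0, Bowtie2 2.1.0, TopHat, TopHat2 2.0.8 and FastQC. Every gene exceeded 5 in at least 2 libraries. Depth is not held in these values, and no count model was used.

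Groups and numbers come from the sample titles. Genes with a mean over 18 columns of at least 11.4 (the mean column total divided by 1000000) were kept; those nearest to the limit had means of 11.39 outside and 11.44 inside. Values were transformed to log2(value + 1), which understates changes of genes with low values. All 18 libraries were fitted with the replicate number as a block and a mean-variance trend (limma 3.58.1, R 4.3.3), with two-sided tests and Benjamini-Hochberg adjustment at 0.05 over all 16103 genes. Errors of shifts are limma standard errors, and errors of single values per library are SDs, tested by exact sign-flip over 6 numbers, whose smallest p is 0.03125. The block follows from the contrast within numbers. Same-numbered libraries of different groups correlated at r = 0.67 to 0.90 after removal of group means (mean 0.78), all above the limit of 0.1 at which numbers are taken to pair the samples, although libraries of different numbers reached 0.76; the labels state no pairing. No 2 libraries were identical. The fitting was tested on simulated data in which the noise of a gene had the same spread in all libraries. Libraries of unequal spread were not simulated, so that test does not cover the unequal library weights of these data.

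The contrast, the size limits, the rule for named genes and the alternatives were chosen with earlier results of these data known. The rule named by identifier the 2 higher and 2 lower genes of smallest p in the pooled contrast, and for each direction of opposite shifts in 6 of 6 numbers the 2 of smallest p for high minus low; others are said to be named after their values were seen. Lists of ABC transporters, glucocorticoid signalling, cortisol synthesis, heat shock and cell cycle genes, and tissue markers, could not be applied without gene names. Figures used Python 3.11.15 and matplotlib 3.10.9.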

Additional observations from a re-analysis of the deposited data

Results flagged for a closer look

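In 51 groups of 6 pools checked by Dixon's ratio for a value far from the other 5, 7 passed the 95% limit, where chance gives 2.55 for independent groups. The groups were not independent, as each gene named below stood out in the same number of every group. The values were not log-transformed for this check. ENSGACG00000009698 was far above the others in number 3 of every group, at 157 in the control pool (15 to 38 in the others), 180 in the low pool (22 to 43) and 303 in the high pool (43 to 123). ENSGACG00000013729 was far above the others in number 5 of every group, at 242 in the control pool (56 to 87), 280 in the low pool (58 to 125) and 276 in the high pool (100 to 155). Control pool 3 listed 738 genes at 5 or below (418 to 530 in the other control pools).

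In 25 genes every low pool moved one way from its control and every high pool the other. In the 4 that are named, which were chosen for opposite shifts and a small p, high minus low is given as a description (adjusted p 0.9999 in limma without the replicate block): ENSGACG00000020034 at -1.02, ENSGACG00000007727 at -0.91, ENSGACG00000005209 at 0.59 and ENSGACG00000007691 at 1.33 on the log2 scale.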

How the results depend on the processing

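The count of 0 genes for both doses against control was also 0 without the replicate block, without the variance trend, in a robust fit, with pseudocounts of 0.5 and 5, with no filter, with a mean of at least 50, with median-ratio rescaling and with the tally of low genes (listed at 5 or below) as a covariate. It was 1 on the 6 differences alone, 186 with sample weights, 5 at a threshold of 0.10, 2 with the column total as a covariate, 4 with quantile normalization (all lower) and 0 to 27 without single libraries or numbers. The 558 genes for low against the others became 0 without the block, 289 without the trend, 2193 with sample weights, 1064 at 0.10, 17 and 172 with the covariates low values and column total, and 103 to 1189 without single libraries or numbers. The 1155 for high became 0 without the block, 657 on the 6 differences, 694 without the trend, 1805 with sample weights, 1981 at 0.10, 107 with the covariate low values and 351 to 1271 without single libraries or numbers. The same-way count of 78 was 711 in at least 5 of 6 pairs and 91 to 346 with fewer pairs, highest without number 5; the count of 25 opposite genes was 234 and 27 to 88. Fewer required differences raise both by construction. By size, 301 same-way genes became 198 with a pseudocount of 5, 487 with no filter, 103 at a mean of at least 50, 913 and 46 with limits of 0.2 and 0.5, and 285 to 455 without single libraries or numbers. The 276 opposite genes became 143 at a mean of at least 50, 731 and 41 with the limits, and 216 to 399. Quantile normalization moved the split of opposite genes (up against down at the low dose) from 12 and 13 to 17 and 8 by pair agreement and from 225 and 51 to 143 and 72 by size. Without numbers 1 and 6, chosen after seeing the data, the counts were 0 for low, 614 for high, 414 same-way and 88 opposite genes in 4 numbers, and 578 same-way genes by size. The pooled shift of 10 named genes and high minus low of the 4 named opposite genes kept their sign in 38 alternatives each. ENSGACG00000001925 and the other shifts of named genes were not run. Without the block limma called 0 genes in any contrast, and the adjusted p for high minus low of every named gene was 0.9999. Differences between numbers enter the error of that fit, so its counts of 0 cannot decide whether a call holds. Other causes of these changes were not tested. The values do not hold the depth, so counting error is not given.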
